A study of Rattus norvegicus with 4 samples.

Results

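The translation initiation factors are the proteins that bring a ribosome, the initiator tRNA and a messenger RNA together at the start codon. Their genes were taken as those whose symbol begins with Eif followed by a digit from 1 to 6 and that at least 1 probe set of the array names alone. A probe set is a group of short probes that reports on 1 transcript. This gave 49 genes of 14217 named in this way. They were covered by 75 probe sets, and each gene was represented by its brightest one. The 49 include proteins that regulate initiation, such as the kinases of eIF2 and the eIF4E-binding proteins, because they carry the same symbol stem.

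The samples were 4 single-colour arrays hybridised with total RNA from the adrenal medulla of rats, 2 for unstressed rats and 2 for rats held immobilized over 2 h. No other treatment or genetic change is named for either group, and the labels do not give strain, sex or age. Nor do they say whether a group's arrays represent separate rats or pools, so the p-values reflect only how these samples vary, which may be technical. Replicate numbers follow accession order and pair nothing between groups.

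In initiation, the cap at the start of a messenger RNA is bound by eIF4E, which joins the scaffold eIF4G and the RNA helicase eIF4A. The eIF4E-binding proteins compete with eIF4G for eIF4E until the kinase complex mTORC1 phosphorylates them. The initiator tRNA is carried by eIF2 in its GTP-bound form, and eIF2B reloads eIF2 with GTP after each round. Stress kinases phosphorylate the alpha subunit of eIF2, which then blocks eIF2B and slows initiation on most messages. Chromaffin cells of the adrenal medulla make and secrete catecholamines and peptides, so they synthesise prohormones and granule proteins continuously.

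The labelled tissue was checked first, and both chromaffin and cortical genes were bright on all 4 arrays. The chromaffin markers were Th, Dbh, Pnmt, Chga and Chgb. Their summed intensity was 252545 to 263008 on the unstressed and 225783 to 326194 on the immobilized arrays, and 0 of 5 passed the test. Pnmt had a log2 change of 0.36 (adjusted p = 0.171 in limma), with both immobilized readings above both unstressed ones. The other chromaffin markers had -0.09 to 0.09. The 6 adrenal cortex markers with a probe set summed to 257132 to 292082 unstressed and 207638 to 276701 immobilized. Cortical tissue was thus represented in the RNA of both groups. Of these 6, 1 passed the test, Nr5a1, a steroidogenic transcription factor, with a log2 change of 0.47 and an adjusted p of 0.0437 in limma. The steroidogenic enzyme genes Cyp11b1, Cyp11a1, Cyp21a1 and Hsd3b1 had -0.64, -0.35, -0.27 and -0.24, and Star, which delivers cholesterol to mitochondria, had 0.07. None of these 5 passed. Among the other markers, S100b of Schwann and sustentacular cells and the endothelial receptor Kdr fell, by 0.59 and 0.79 on the log2 scale, while the endothelial Pecam1 had 0.54 (adjusted p = 0.151 in limma) and Sox10 of Schwann cells -0.14 (0.778), neither of which passed. The part of any of these cells in the changes below was not tested. In bulk tissue fewer cells of a type and less RNA per cell cannot be told apart.

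All 49 genes were tested, and their intensities ran from 943 to 38527. All of these lay above the 2.18 to 257 read by the array's 27 Bacillus control probe sets, which match no rat transcript. Changes are given as log2 of the immobilized over the unstressed level, computed after adding 16 to each intensity, with the SE of the fit (n = 2 arrays per group throughout). A gene is said to rise or fall where its adjusted p in limma, Benjamini-Hochberg corrected over 18625 tested probe sets, was below 0.05.

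Among the initiation factors, the cap-binding protein Eif4e, the helicase Eif4a1, the eIF2 kinase Eif2ak4 and 5 further genes rose. The eIF4E-binding proteins Eif4ebp1 and Eif4ebp2, 3 of the 5 eIF2B subunits and the eIF2 kinases Eif2ak1 and Eif2ak2 fell. Most changes were modest: 14 of the 15 lay within 2-fold, and the largest was the 2.09-fold fall of Eif4ebp1.

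The share that passed was close to the background. Of the 49 genes 8 rose, 7 fell and 34 did not pass, so 30.6% passed, against 31.1% of all tested probe sets and 33.0% of all genes represented by 1 probe set. By direction, 16.3% of the initiation factors rose, against 11.7% of probe sets and 11.2% of genes. Likewise 14.3% fell, against 19.4% and 21.8%. Their median log2 change was 0.16, against -0.14 over all genes and -0.12 over all tested probe sets. The groups did not overlap at 39 of the 49, or 79.6%, against 67.8% of all probe sets and 69.7% of all genes. Of these, 24 were higher after immobilization (49.0%, against 25.5% of probe sets and 24.1% of genes) and 15 were lower (30.6%, against 42.4% and 45.6%). The family is bright, its median gene lying at percentile 92.6 of level against 76.9 for all tested genes. The shares over all genes are the background for the counts by role below, and no role group was tested as a set.

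**Figure D1:**
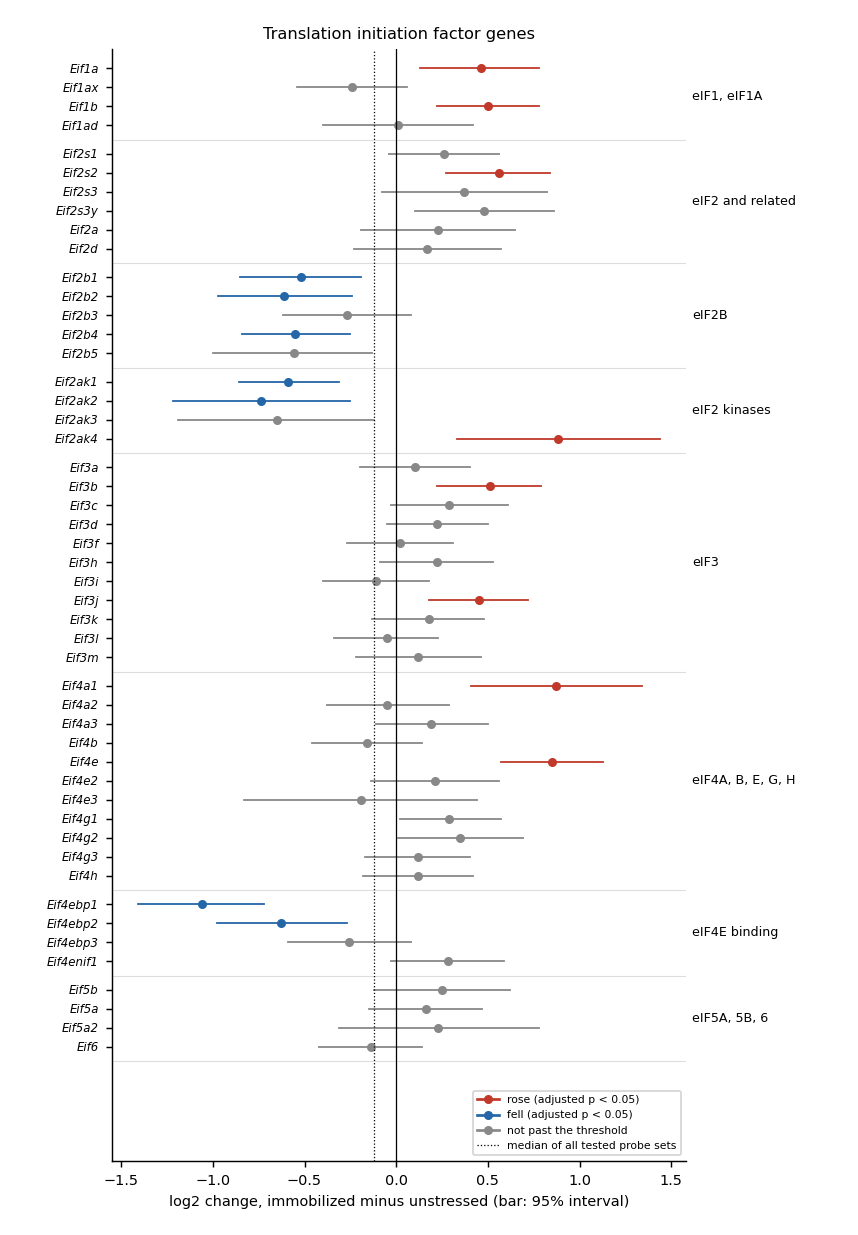
The log2 change of each of the 49 initiation factor genes (immobilized minus unstressed, horizontal axis) is drawn with its 95% interval, grouped by role. Red genes rose and blue genes fell at an adjusted p below 0.05, grey genes did not pass, and the dotted line marks the median of all tested probe sets at -0.12. All 5 eIF2B genes lie left of 0 and all 6 genes of the eIF2 group lie right of it.

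On the brightest probe sets, the clearest pair was the cap-binding protein and its inhibitor. Eif4e, which recognises the cap and is a limiting factor for initiation on many messages, had intensities of 12283 and 12702 in unstressed and of 22855 and 22225 in immobilized rats. Both immobilized readings stood well above both unstressed ones. The rise was 0.85 ± 0.12 on the log2 scale, or 1.80-fold, with an adjusted p of 0.00299 in limma. Dimmer probe sets of Eif4e had 2.04 (adjusted p = 0.0016) and 0.08 (0.837), so they did not all rise. The gene table also lists 10 pseudogenes under its symbol, whose part in the reading was not tested. Eif4ebp1, the best studied of the proteins that sequester eIF4E, read 5584 and 6578 unstressed against 2875 and 2909 immobilized. Its immobilized readings agreed closely, and both lay below both unstressed ones. The change was -1.06 ± 0.14 with an adjusted p of 0.00279 in limma. Eif4e and Eif4ebp1 stayed past the threshold with each of the 4 arrays left out in turn, the adjusted p in limma reaching 0.0326 and 0.0454 at most, and no other initiation factor did.

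The difference between log2 Eif4e and log2 Eif4ebp1 within an array removes any constant factor per array, but not a normalization that depends on intensity. Relative to its unstressed mean, it was 0.09 and -0.09 in unstressed and 1.94 and 1.89 in immobilized rats. The changes of these genes thus differed by 1.91, and by 1.79 to 2.04 over the 4 pairings of an immobilized with an unstressed array. The pair was chosen for this after its values were seen, so the figure is a description. After quantile normalization the changes were 0.72 for Eif4e and -0.98 for Eif4ebp1.

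The other eIF4E-binding genes did not all move alike. Eif4ebp2, a further eIF4E-binding protein prominent in neurons, read 11019 and 13330 unstressed and 7249 and 8492 immobilized. Its groups did not overlap, and the change was -0.63 ± 0.15 with an adjusted p of 0.0207 in limma. Eif4ebp3, also of that family, had -0.26 ± 0.14 and did not pass, with a 95% interval of -0.59 to 0.08. Eif4enif1, which carries eIF4E into the nucleus, had 0.28 ± 0.13 and did not pass either. Eif4ebp2 no longer passed with immobilized 1 or immobilized 2 left out (adjusted p = 0.137 and 0.075 in limma), nor with every array centred on its own median (-0.48, adjusted p = 0.054).

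Within the complex at the cap, 2 of 11 genes rose, 0 fell and 9 did not pass. Over all genes 11.2% rose and 21.8% fell. Besides Eif4e, the helicase gene Eif4a1 read 13733 and 19712 unstressed and 32782 and 27722 immobilized. Its unstressed arrays differed from each other by more than those of Eif4e did, but all immobilized readings were higher. The change was 0.87 ± 0.20, or 1.83-fold, with an adjusted p of 0.0169 in limma. Its close paralogue Eif4a2 had -0.05 ± 0.14, and 0.10 after median centring, with readings of 37106 and 37204 against 38527 and 33609, so the groups overlapped. Within arrays the changes of the helicase paralogues differed by 0.92, and by 0.64 to 1.20 over the pairings, again a description. Eif4a3, the third paralogue, which serves in the exon junction complex, had 0.19 ± 0.13 and did not pass.

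On their brightest probe sets, the scaffold genes had positive changes that missed the threshold. Eif4g1, the main scaffold, had 0.29 ± 0.11 (adjusted p = 0.0946 in limma), and 0.44 (0.0338) after median centring. Eif4g2, a related protein that lacks the eIF4E-binding part, had 0.35 ± 0.14, and Eif4g3 had 0.12 ± 0.12. A further probe set of Eif4g2 passed, with 0.50 (adjusted p = 0.0475 in limma), and another had 0.20 (0.466). The helicase cofactors Eif4b and Eif4h had -0.16 ± 0.13 and 0.12 ± 0.13. The eIF4E relatives Eif4e2 and Eif4e3 had 0.21 ± 0.15 and -0.19 ± 0.27. None of these 7 passed on its brightest probe set, and the sign for Eif4h turned to -0.04 after quantile normalization. Eif4a1 no longer passed with immobilized 1 or immobilized 2 left out (adjusted p = 0.109 and 0.0699 in limma), and its change was 0.61 without unstressed 1.

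**Figure D2:**
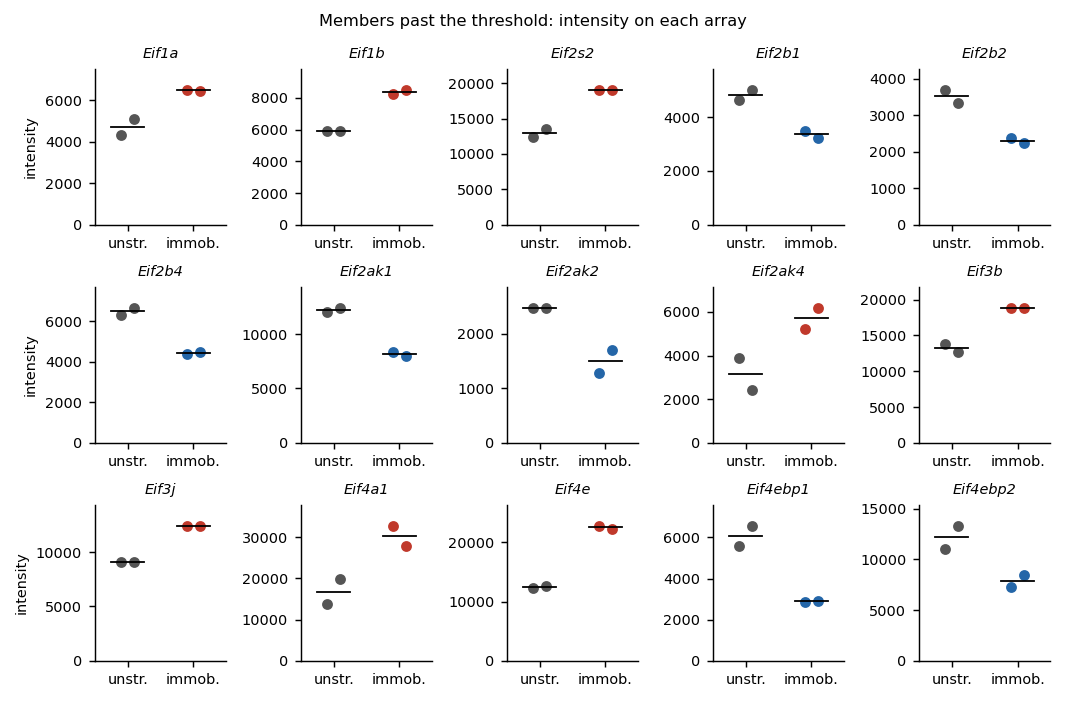
Each panel shows the intensity, from 0, of 1 of the 15 genes that passed the test, with 1 point per array and a line at the mean of each group of 2. The groups do not overlap in any panel. The Eif4e points sit at 12283 and 12702 unstressed and at 22855 and 22225 immobilized, and those of Eif4ebp1 fall from 5584 and 6578 to 2875 and 2909.

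The promoters were read to see whether the genes that moved together share the recognition letters of stress-related factors. RefSeq promoter windows of the GRCr8 build, 250 bases before to 50 after the annotated start, matched 45 of the 49 genes, and Eif3h, Eif4b, Eif4e3 and Eif4ebp1 had no entry. Where a gene had several windows the first listed was used. The E-box CACGTG, read by Myc and by the clock factors, was in 9 of 45 windows (20.0%). Over all 27457 genes of the table, with 1 window each, the share was 6.65%. It was in 3 of 8 genes that rose, 0 of 6 that fell and 6 of 31 that did not pass. The full cAMP response element TGACGTCA was in 0 of 45, against 1.91%. Its core TGACG, or CGTCA on the other strand, which the full element contains, was in 22 of 45 (48.9%), against 22.0%, and in 3 of 8 that rose, 5 of 6 that fell and 14 of 31 that did not pass. The amino acid response element TGATGCAA, or TTGCATCA on the other strand, was in 1 of 45, that of Eif2s2, against 0.743%. The windows of the table were not matched to the members for level or base composition, so the shares cannot be compared beyond that. These matches are descriptions of letters, and no match says only that the letters are not in the window.

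The 100 bases before the start of the 3 genes that rose and hold an E-box, and of Eif2s2, are shown 5′ to 3′ on the strand of the gene, with the E-box, or in Eif2s2 the amino acid element, in capitals. They were chosen after the matches were seen. They lie at chr2:229740653-229740752 on the plus strand for Eif4e, chr8:129081058-129081157 plus for Eif1b, chr12:19334769-19334868 minus for Eif3b and chr3:163855571-163855670 minus for Eif2s2. Counted from the start, the E-box begins at -80 in Eif4e, -54 in Eif1b and -57 in Eif3b. Eif4e holds another at -237, outside the printed stretch. The element of Eif2s2 begins at -36.
Eif4e: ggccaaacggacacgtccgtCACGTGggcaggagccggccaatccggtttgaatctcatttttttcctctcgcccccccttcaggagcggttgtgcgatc
Eif1b: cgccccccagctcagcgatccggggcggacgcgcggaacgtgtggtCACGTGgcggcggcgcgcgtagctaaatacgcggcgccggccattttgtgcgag
Eif3b: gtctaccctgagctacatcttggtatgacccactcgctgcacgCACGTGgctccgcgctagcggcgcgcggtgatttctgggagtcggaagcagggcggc
Eif2s2: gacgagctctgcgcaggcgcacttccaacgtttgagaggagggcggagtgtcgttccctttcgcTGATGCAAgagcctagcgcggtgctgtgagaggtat

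On their brightest probe sets, the genes of the eIF2 group and those of the exchange factor eIF2B had changes of opposite sign. The eIF2 group holds the subunit genes, with Eif2s3y, and the related Eif2a and Eif2d. Of its 6 genes 1 rose and 5 did not pass, all with positive changes (median 0.32). A probe set naming both Eif2s3 and Eif2s3y had -0.31 ± 0.28 and did not pass. Of the 5 eIF2B genes 3 fell and 2 did not pass, all with negative changes (median -0.55). Over all genes 11.2% rose, 21.8% fell and 6357 of 10320 had a negative change (median -0.14). On the brightest probe sets, the signs in both groups were the same after quantile normalization and after median centring. With immobilized 2 left out, Eif2d had -0.02 and Eif2a 0.03. Within arrays, the mean of Eif2s1, Eif2s2 and Eif2s3 against the mean of the 5 eIF2B genes shifted by 0.90, and by 0.81 to 0.99 over the pairings, a description made after the values were seen.

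Eif2s2, the beta subunit of eIF2, read 12438 and 13489 unstressed and 19081 and 19052 immobilized. The groups were well separated, and the rise was 0.56 ± 0.12 with an adjusted p of 0.0143 in limma. Eif2s1, the alpha subunit that carries the regulatory phosphorylation site, had 0.26 ± 0.13, and Eif2s3, the GTP-binding gamma subunit, had 0.37 ± 0.19. The value for Eif2s3 depended on the array left out: it was 0.60 without unstressed 1 (adjusted p = 0.0205 in limma), 0.15 without unstressed 2 (0.541) and 0.23 without immobilized 1 (0.585). The Y-linked copy Eif2s3y had 0.48 ± 0.16 (adjusted p = 0.0624 in limma), and passed after quantile normalization (0.0445), after median centring (0.0244) and without unstressed 1 (0.0386). Without immobilized 2 its change was 0.29 (0.359). Eif2a and Eif2d, which can deliver tRNA to the ribosome by routes other than eIF2, had 0.23 ± 0.18 and 0.17 ± 0.17, and their groups overlapped. Eif2s2 no longer passed with immobilized 1 or immobilized 2 left out (adjusted p = 0.0747 and 0.0813 in limma).

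In eIF2B, the genes that fell encode the regulatory subunits. Eif2b1, the alpha subunit, read 4623 and 5022 unstressed and 3497 and 3217 immobilized, a change of -0.52 ± 0.14 (adjusted p = 0.0297 in limma). Eif2b2, the beta subunit, read 3702 and 3349 against 2369 and 2245, a change of -0.61 ± 0.15 (adjusted p = 0.025). Eif2b4, the delta subunit, read 6284 and 6668 against 4363 and 4486, a change of -0.55 ± 0.12 (adjusted p = 0.0173). In all 3 every immobilized reading was below every unstressed one, and each fall was 1.43-fold to 1.52-fold.

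The remaining eIF2B subunits belong to the catalytic part. Eif2b5, the epsilon subunit with the exchange activity, read 2573 and 3170 against 2056 and 1803. Its change was -0.56 ± 0.18 (adjusted p = 0.0577 in limma), and a further, dimmer probe set had -0.08 (0.797). It passed without unstressed 1 (-0.71, 0.0204), but had -0.42 (0.162) without unstressed 2 and -0.32 (0.22) when its probe sets were averaged. Eif2b3, the gamma subunit, had -0.27 ± 0.15 and did not pass. The calls on Eif2b1, Eif2b2 and Eif2b4 were all lost after median centring (adjusted p = 0.0895, 0.059 and 0.0546 in limma) and with either immobilized array left out (0.115 to 0.195). Those on Eif2b1 and Eif2b2 were also lost after quantile normalization (0.0676 and 0.0543), and that on Eif2b1 without unstressed 2 (0.0558).

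The 4 kinases of eIF2 alpha each answer to a different stress, and 1 rose, 2 fell and 1 did not pass. Eif2ak4, known as Gcn2, which senses uncharged tRNA when amino acids are short, read 3886 and 2433 unstressed and 5229 and 6197 immobilized. Its unstressed arrays differed more than its immobilized ones, and the change was 0.88 ± 0.23, or 1.85-fold (adjusted p = 0.0289 in limma). Eif2ak1, the heme-regulated inhibitor, read 12065 and 12440 against 8333 and 7945, a change of -0.59 ± 0.12 (adjusted p = 0.0104). Its groups were well separated, and a second probe set had -0.66 with an adjusted p of 0.0237. Eif2ak2, known as Pkr, which binds double-stranded RNA, read 2472 and 2485 against 1288 and 1707, a change of -0.74 ± 0.20 (adjusted p = 0.0338). Eif2ak3, known as Perk, the kinase of the endoplasmic reticulum stress response, read 2029 and 1789 against 1400 and 1036. Its change of -0.65 ± 0.22 did not pass (adjusted p = 0.0658).

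Within arrays the changes of Eif2ak4 and Eif2ak1 differed by 1.47, and by 0.96 to 1.99 over the pairings, a pair taken because one rose and the other fell, so this is a description. The calls on all 3 kinases were lost with either immobilized array left out: with immobilized 1 and then immobilized 2 left out, the adjusted p in limma was 0.112 and 0.201 for Eif2ak4, 0.0638 and 0.0876 for Eif2ak1, and 0.189 and 0.073 for Eif2ak2. The change of Eif2ak4 was 0.55 without unstressed 2. The call on Eif2ak2 was also lost after quantile normalization and median centring (0.0642 and 0.0645).

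Among the start codon factors, Eif1b, a paralogue of Eif1, the factor that keeps the scanning ribosome open until it meets a start codon, read 5926 and 5941 unstressed and 8251 and 8520 immobilized. All immobilized readings were higher, by 0.50 ± 0.12 (adjusted p = 0.0197 in limma). Eif1a, a copy of the scanning factor eIF1A, read 4336 and 5114 against 6518 and 6439. This change of 0.46 ± 0.14 passed narrowly (adjusted p = 0.0434), and it was lost when dim probe sets were kept in (0.0667). Its 3 further probe sets had larger changes of 0.64, 0.83 and 1.08, and 2 of them rose. With its probe sets averaged the change was 0.75. Eif1ax, the X-linked eIF1A gene, had -0.24 ± 0.13, and Eif1ad, a related protein, had 0.01 ± 0.17, and neither passed. Leaving out immobilized 1 ended the calls on Eif1b and Eif1a (adjusted p = 0.112 and 0.206 in limma), as did leaving out immobilized 2 (0.146 and 0.203), and that on Eif1a also without unstressed 1 (0.10).

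In the large eIF3 complex, which holds the small ribosomal subunit and recruits the message, most genes did not pass. Of its 11 genes 2 rose, 0 fell and 9 did not pass, with a median of 0.18 and a range of -0.11 to 0.51. Over all genes 11.2% rose and 21.8% fell, with a median of -0.14. Eif3b, a core scaffold subunit, read 13866 and 12698 unstressed and 18900 and 18820 immobilized. The immobilized arrays nearly coincided, and the rise was 0.51 ± 0.12 (adjusted p = 0.0205 in limma). Eif3j, a loosely bound subunit near the mRNA channel, read 9105 and 9085 against 12395 and 12434, a rise of 0.45 ± 0.11 (adjusted p = 0.0255). Here the arrays of each group agreed within 40 intensity units.

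The other eIF3 genes with a probe set of their own were Eif3a, Eif3c, Eif3d, Eif3f, Eif3h, Eif3i, Eif3k, Eif3l and Eif3m. Their changes ran from -0.11 for Eif3i to 0.29 for Eif3c. The signs for Eif3a, Eif3f and Eif3m turned negative after quantile normalization, and those for Eif3i and Eif3l turned positive after median centring. Leaving out immobilized 1 ended the calls on Eif3b and Eif3j (adjusted p = 0.0908 and 0.122 in limma), as did leaving out immobilized 2 (0.098 and 0.134), and that on Eif3b also without unstressed 2 (0.0749).

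The factors that act at or after subunit joining gave no call among 4 genes. Eif5b, the GTPase that joins the ribosomal subunits, read 5619 and 5636 unstressed and 5892 and 7640 immobilized. The immobilized arrays differed from each other, and the change was 0.25 ± 0.16 (adjusted p = 0.26 in limma), with further probe sets at 0.39 and 0.54 that did not pass either. Eif5a2, a minor form of the hypusine-bearing factor eIF5A, read 1123 and 943 against 1356 and 1086, so the groups overlapped, and the change was 0.23 ± 0.23. The main form Eif5a had 0.16 ± 0.13. Eif6, which keeps the large subunit from joining early, had -0.14 ± 0.12, and 0.00 after median centring.

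Different probe sets of a gene did not always give the same change. Of the 49 genes 19 had more than 1 probe set, and 24 of the 26 further probe sets were bright enough to be tested. Of these 7 rose and 2 fell, and none that passed went against a called brightest probe set. Among these 9, 5 passed where the brightest one of the gene did not, those of Eif3a, Eif3c, Eif3l, Eif4g1 and Eif4g2. That of Eif3c had 0.57 (adjusted p = 0.043 in limma).

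The widest differences were in Eif4e, Eif3l, Eif3a and Eif4g1, named here after their values were seen. For Eif4e, a dim probe set read 542 and 542 unstressed and 2678 and 1942 immobilized, a rise of 2.04 ± 0.24 (adjusted p = 0.0016 in limma), while another had 0.08 ± 0.27. For Eif3l, whose brightest probe set had -0.05, a further one read 3727 and 5946 against 1761 and 1874, a fall of 1.37 ± 0.23 on the log2 scale (adjusted p = 0.00643). Both immobilized readings there were below both unstressed ones. For Eif3a, whose brightest probe set had 0.10, a further one read 2451 and 2498 against 5249 and 6131, a rise of 1.19 ± 0.15 (adjusted p = 0.00198). The 4 probe sets of Eif4g1 ran from -0.74, which did not pass, to 0.91, which did. Which transcript parts these probe sets match is not known here, so a difference between isoforms was not tested.

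**Figure D3:**
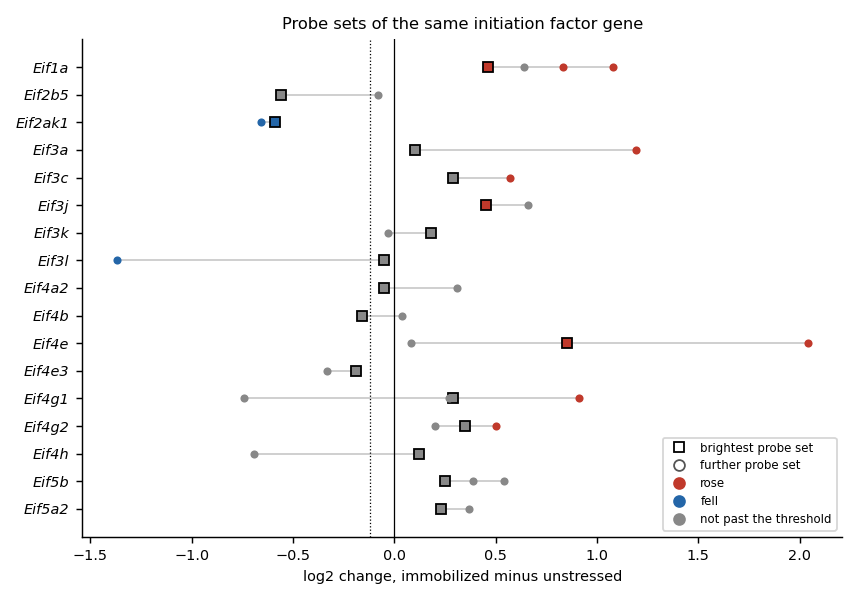
Each row is an initiation factor gene with at least 2 tested probe sets, placed by log2 change (immobilized minus unstressed). Squares mark the brightest probe set, circles the further ones, and colour marks whether each rose, fell or did not pass. Eif4e spans 0.08 to 2.04, and Eif3l spans -1.37 to -0.05.

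Copies of these genes limit how surely a reading belongs to 1 of them. The gene table of the GRCr8 assembly lists pseudogenes named by the gene's symbol with a -ps suffix for 24 of the 49. Among them are 10 for Eif4e and 8 for Eif4a1, and none is so named for Eif4ebp1, Eif4ebp2 or any eIF2B gene. Pseudogenes under other symbols were not counted, so further copies may exist for any of the 49. Whether transcripts of such copies add to a reading was not tested. A set of 5 probe sets that name several genes was left out by the rule, and 0 of them passed. For the GTPase-activating factor Eif5 and its pseudogene Eif5-ps1, the changes in limma were 0.04 ± 0.13, -0.21 ± 0.13 and 0.29 ± 0.23. For the eIF3 subunit Eif3e with Eif3el1 the change was 0.10 ± 0.16, and for Eif2s3 with Eif2s3y it was -0.31 ± 0.28.

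Beside the initiation factors, 54 other genes of translation and its control were read from lists by role. Of these 19 passed, or 35.2%, against 33.0% of all genes, where 11.2% rose and 21.8% fell. Of 17 genes of mTORC1 and eIF4E kinase signalling 1 rose and 8 fell. Ddit4, an inhibitor of mTORC1 also known as Redd1, rose by 2.44 ± 0.17, from 4291 and 3351 to 22766 and 18607. Mknk2 and Mknk1, the kinases that phosphorylate eIF4E, fell by 1.41 ± 0.12 and 0.86 ± 0.15 on the log2 scale. The mTORC1 kinase Mtor had -0.67 and its partners Mlst8, Akt1s1 and Deptor -0.94, -0.68 and -0.90, of which Akt1s1 and Deptor are inhibitors of the kinase. Rptor, another mTORC1 partner, had -0.03 ± 0.20 (adjusted p = 0.924 in limma) with overlapping groups, so not every gene of the complex fell. Tsc1, a further inhibitor of the pathway, had -0.56, and Pdcd4, which binds eIF4A and blocks it, had -0.61. These 8 falls had adjusted p between 0.000577 and 0.0271 in limma. After median centring those of Tsc1 and Pdcd4 were lost (0.067 and 0.0552), and that of Tsc1 also after quantile normalization (0.0578). With each gene's probe sets averaged, Tsc1 had -0.10 (0.714), Pdcd4 -0.43 (0.0729) and Akt1s1 -0.61 (0.062), and these 3 calls were lost. The list's median was -0.31, against -0.14 over all genes. Of the 17 genes 3 had positive changes: Ddit4, Rheb and Larp1. Rheb and Larp1 had 0.36 each and did not pass (adjusted p = 0.0859 and 0.0619 in limma), but passed after median centring (0.0408 and 0.0273).

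Of 10 regulators of eIF2 alpha phosphorylation 1 rose and 0 fell, against 11.2% and 21.8% of all genes. Ppp1r15a, known as Gadd34, which brings a phosphatase to eIF2 alpha, rose by 1.97 ± 0.13, from 4079 and 4590 to 16273 and 17768 (adjusted p = 0.000198 in limma). Its constitutive relative Ppp1r15b had 0.24 ± 0.12 and did not pass. Of 6 genes for poly(A)-binding protein and its partners 2 rose and 3 fell. Paip2b, which withholds poly(A)-binding protein from the message, rose by 1.24 ± 0.14, and Pabpc4 by 0.44 ± 0.11. Paip1, which supports that protein, had -0.56 ± 0.12, and the poly(A) nuclease genes Pan2 and Pan3 had -1.23 ± 0.14 and -0.59 ± 0.12, all past the threshold. With each gene's probe sets averaged, Paip1 had -0.30 (adjusted p = 0.282 in limma), Pan3 -0.29 (0.166) and Pabpc4 0.39 (0.0933), and these 3 calls were lost. That on Pabpc4 was also lost with each of the 4 arrays left out and without the intensity trend (0.0705).

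Of 10 other initiation factors 1 rose and 1 fell. Bzw1, an eIF5 mimic, rose by 0.97 ± 0.24, from 5135 and 8765 to 12613 and 13796, with 0.59 without unstressed 1 and 0.61 when its probe sets were averaged. Mtif2, the mitochondrial initiation factor, fell by 1.46 ± 0.20. Of 11 elongation and termination genes 1 rose and 1 fell. Etf1, the release factor that reads stop codons, rose by 1.11 ± 0.12, from 7993 and 7549 to 16474 and 17206. Eef2k, the kinase that inactivates the elongation factor eEF2, fell by 0.69 ± 0.16. The elongation factor genes Eef1a1 and Eef2 had -0.10 ± 0.20 and 0.09 ± 0.16 and did not pass. With each array left out in turn, 7 of the 19 calls in these lists stayed past the threshold: Mknk2, Ddit4, Ppp1r15a, Paip2b, Pan2, Mtif2 and Etf1. A further 11 were lost with either immobilized array left out, and Deptor without immobilized 2 (adjusted p = 0.076 in limma). Tsc1 was also lost without unstressed 1 (0.0543).

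**Figure D4:**
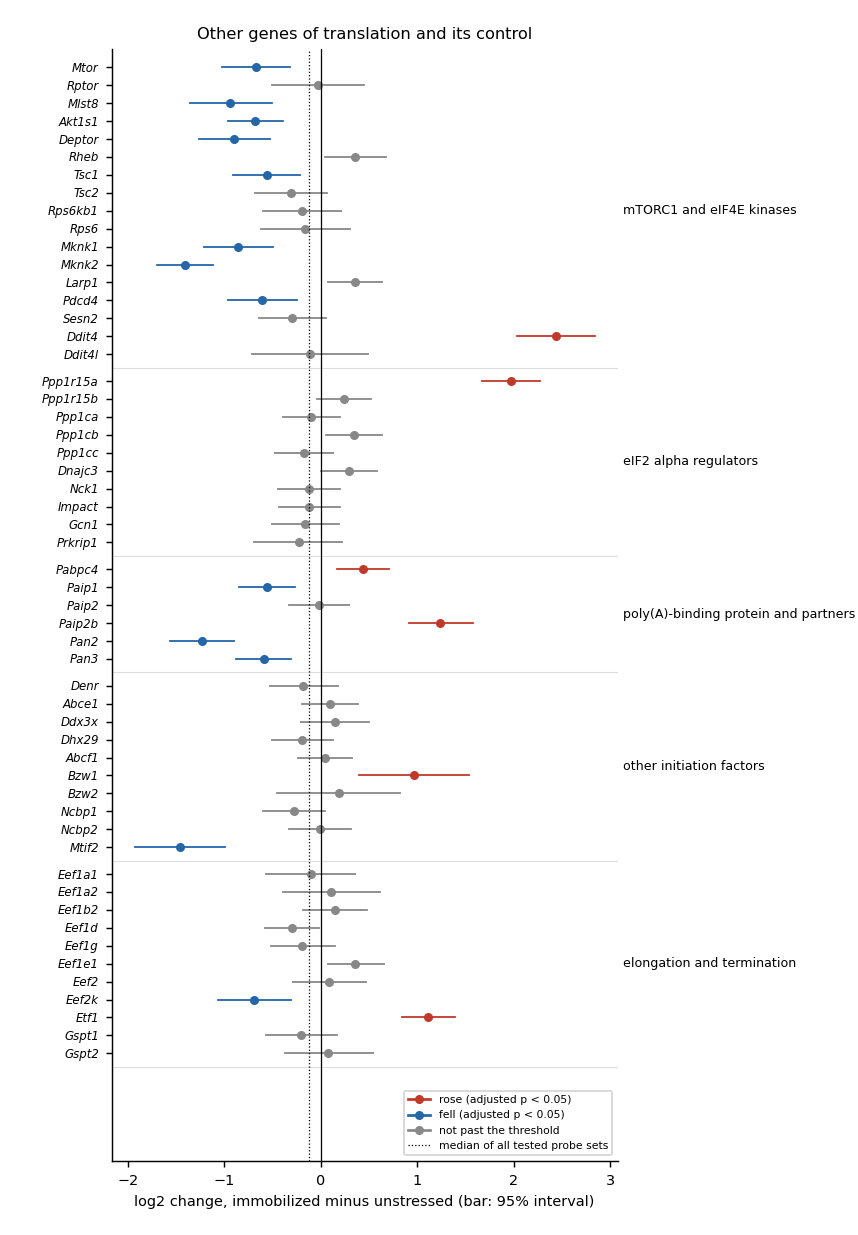
The log2 change (immobilized minus unstressed, horizontal axis) with its 95% interval is drawn for 54 other genes of translation and its control, grouped by role and coloured by call. Ddit4 at 2.44 and Ppp1r15a at 1.97 lie farthest to the right, and Mtif2 at -1.46 and Mknk2 at -1.41 farthest to the left.

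The balance of rises and falls in the family depends on how the arrays are scaled. Median centring moves the median of all tested probe sets from -0.12 to 0.02, a shift of 0.14. With it 10 initiation factors rose and 2 fell, Eif2ak1 and Eif4ebp1, so 83.3% of the calls were rises, against 53.3% as deposited. Quantile normalization gave 9 rises and 4 falls, or 69.2%. Over all tested probe sets the share of rises among calls was 37.6%, 53.1% and 44.8% with the deposited scaling, median centring and quantile normalization. Under all 3 scalings every one of the 15 called genes kept the sign of its change. All 8 that rose passed under each, as did Eif4ebp1 and Eif2ak1 among those that fell.

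**Figure D5:**
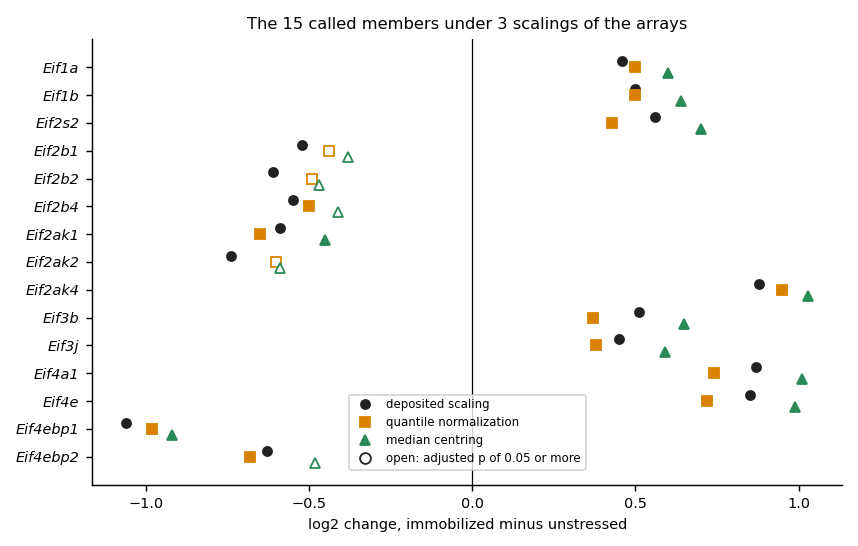
The log2 change (immobilized minus unstressed) of the 15 genes that passed is shown with the deposited scaling (circles), after quantile normalization (squares) and after median centring (triangles). Open symbols have an adjusted p of 0.05 or more. The 8 rises stay filled throughout, while Eif2b1, Eif2b2 and Eif2ak2 are open under both other scalings and Eif2b4 and Eif4ebp2 after median centring.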

How the data were processed

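The authors deposited a linear intensity for each of 31099 probe sets on all 4 arrays. How these deposited intensities were summarised from probes, none of the labels or headers says. The authors' columns share a trimmed mean of 2500 (2% left out at each end), so no further scaling was applied. The 57 control probe sets were left out. Intensities became log2(intensity + 16), so fold changes are on that scale and understate those of dim genes. Probe sets whose mean log2 value lay under the 40th percentile were not tested, which left 18625.

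The comparison used lmFit and trended eBayes of limma (version 3.58.1, under R 4.3.3) with 2-sided p-values and a threshold of 0.05, and rows were read from the table of all tested probe sets. An exact permutation test of 2 arrays against 2 cannot go below p = 0.33, so none is given.

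Genes were named from GEO's platform annotation: 20826 probe sets have 1 symbol, 436 several and 9780 none. Of the first kind 20758 were found in the GRCr8 gene table and 0 symbols changed. Given with values are all calls, the largest changes of role groups without one, and further members by role. The members, lists and tests were chosen with earlier results of these data known. The alternatives were other scalings, offsets of 1 and 64, no filter and one at the 60th percentile, other variance models, each array left out, a threshold of 0.10 and averaging each gene's probe sets. Plots were drawn with matplotlib 3.10.9.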

Additional observations from a re-analysis of the deposited data

How the results depend on the processing

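Of 49 initiation factor genes, 8 rose and 7 fell (15 calls, median log2 change 0.16). The falls numbered 4 after quantile normalization and 2 after median centring, and the median was 0.07 and 0.31. Without the intensity trend 3 rose, 8 passed in all, and Eif1a, Eif1b, Eif2b1, Eif2ak4, Eif3b, Eif3j and Eif4ebp2 were lost. With 1 array left out, rises ranged from 1 to 9, falls from 1 to 8, calls from 2 to 17 and the median from 0.09 to 0.16. Over all probe sets, rises then ranged from 785 to 2638, falls from 893 to 3800 and calls from 1678 to 6438. The lowest counts came without either immobilized array, where the spread rests on the unstressed pair alone, the lone array being assumed to vary like it. Eif4e and Eif4ebp1 were then the only calls among the 49. The counts of rises, of falls and of all calls stayed within 1.5 times the values given for both other offsets, both other filters, robust estimation, the threshold of 0.10 and averaging each gene's probe sets. With that average, Eif3a (0.65) and Eif3l (-0.71) passed as well. The cause was not tested. No call changed sign under any alternative. No paired analysis was possible because the labels give the groups no shared replicate numbers. Precision is limited by having 2 arrays a group.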
